A study of Mus musculus with 6 samples.

Results

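The proteasome genes of regulatory T cells (Treg) were compared between 2 origins of these cells. Members were all genes of the platform annotation with a symbol of the form Psma, Psmb, Psmc, Psmd, Psme or Psmg and a number, without Psmb8 and Psmb9. This rule gave 44 genes out of 18193 with a probe set of their own. They comprise 8 alpha and 9 beta subunits of the 20S core, 6 ATPases and 11 other subunits of the 19S cap, 3 activators and 7 assembly chaperones. Psme2 was not counted, because its probe set also carries the symbol Psme2b, and Psmc3ip and Psme3ip1, which share only the start of the name, were left out.

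RNA of induced Treg (iTreg) was measured on 3 arrays. These CD4+ Foxp3+ Nrp- cells came from mesenteric lymph nodes of Balb/c TBmc Foxp3 GFP mice given 1% ovalbumin by mouth for 1 week. TBmc mice are known, beyond the labels, to make a single T cell receptor, specific for ovalbumin, and a single B cell receptor, so their T cells are monoclonal. Total CD4+ Foxp3+ Treg of wild-type (WT) Balb/c Foxp3 GFP mice, from the same lymph nodes, were measured on 3 further arrays. All mice were 4 to 6 weeks old. The groups differ at once in genotype, receptor repertoire, ovalbumin feeding and the Nrp gate, and the parts of these cannot be told apart. The labels do not say whether replicates were separate mice, so p-values reflect no more than how far the arrays of a group vary, possibly for technical reasons. The cell type label of WT replicate 1 also reads Nrp-, and the strain label of iTreg replicate 1 names neither TBmc nor the reporter.

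The proteasome degrades proteins that carry ubiquitin chains. Its 20S core is a barrel with outer rings of alpha subunits, which form the gate, and inner rings of beta subunits, some of which cut peptide bonds. The 19S cap recognises ubiquitin, removes it and feeds the unfolded protein into the core by means of an ATPase ring. In lymphocytes inducible beta subunits replace the constitutive catalytic ones in part, which changes the peptides made for antigen presentation. Treg, like other T cells, use the proteasome to turn over signalling proteins such as inhibitors of NF-kB.

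Both groups carried T cell transcripts. The summed signal of 8 measured CD4 T cell and Treg markers lay between 16773 and 20098 in iTreg and between 19908 and 26344 in WT Treg, while Foxp3 itself lay between 15.6 and 54.6 in iTreg and between 9.16 and 45.7 in WT Treg. The brightest of 27 bacterial controls that had no target in the sample read 28.5, so the Foxp3 probe set read close to background. The 8 myeloid markers summed to 177 to 315 in iTreg and 84.5 to 126 in WT Treg, without overlap. Of the 5 that were tested all were positive and 3 were higher at an unadjusted limma p under 0.05, against 3% of all genes. S100a9 read above 28.5 on every iTreg array, at up to 78.5, and at 0.81 to 13.1 in WT Treg, and Cd14 lay below the control level on every array. Markers of B cells (6 measured), dendritic cells (6), CD8 T and NK cells (4), erythroid cells (2) and stroma (5) overlapped between the groups in their sums. Of the 8 T cell and Treg markers, 5 were negative and 3 positive (Foxp3, Cd3e and Cd4), and limma called 0 of them. Il2ra, the interleukin receptor chain high on Treg, and Ikzf2, which encodes Helios, were lower in iTreg without overlap, at -1.35 and -0.56 on the log2 scale (limma adjusted p = 0.228 and 0.656), both with an unadjusted p under 0.05, and were picked out after their values were seen. The part of these marker differences in the results below was not tested. The mean log2 signal of the spiked controls was 12.57, 12.72 and 13.02 in iTreg (replicates 1 to 3 in order), against 12.27, 12.47 and 13.11 in WT Treg, so both replicate 3 arrays had brighter spikes after scaling.

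Most proteasome genes had lower signals in iTreg than in WT Treg, by small amounts, and none passed the test. Of the 42 members tested, 33 had a negative difference and 9 a positive one, a share of 78.6% negative, against 52.8% of all 10916 genes tested. Their median difference was -0.32 on the log2 scale, against -0.030 for all genes tested. Limma called 0 members in either direction at an adjusted p of 0.05, where it called 0.0275% of all genes, all of them lower (0.0275%) and 0% higher. The smallest adjusted p among the members was 0.515. At an unadjusted p under 0.05, 5 members lay lower in iTreg and 1 lay higher, against 4.58% of all genes lower and 3% higher. Welch's test also called 0 members, with 2 lower and 1 higher at that unadjusted level, which 472 of all 10916 genes passed in either direction. The groups did not overlap in 11 members that were lower in iTreg and in 1 that was higher, against 7.78% and 5.1% of all genes. In bulk arrays of sorted cells, fewer cells of a type and less RNA per cell cannot be told apart.

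**Figure D1:**
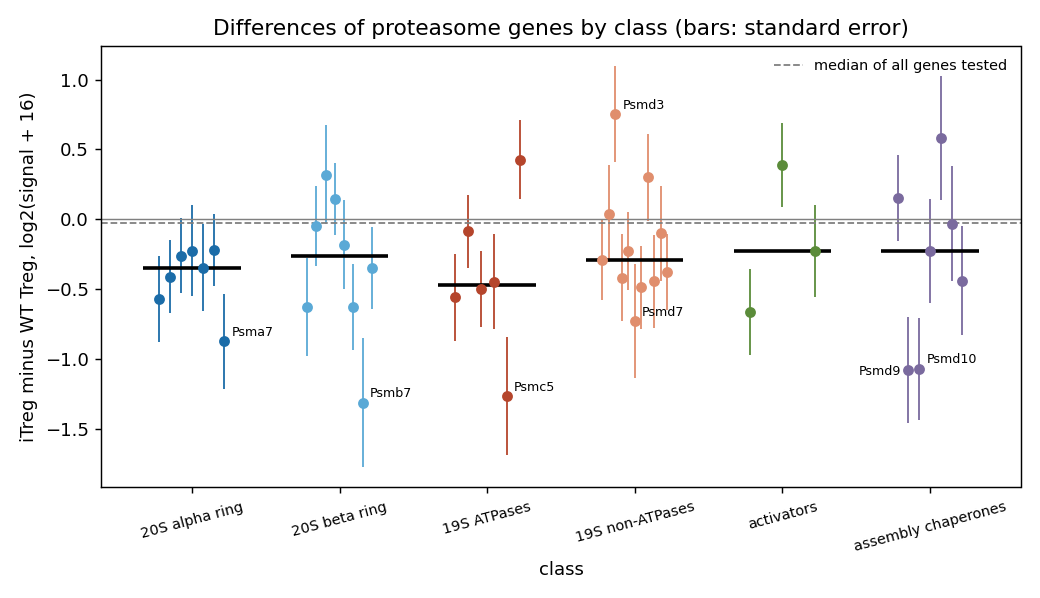
Differences of the 42 tested proteasome genes between iTreg and WT Treg on the log2(signal + 16) scale (y axis), by class (x axis). Points are genes, thin bars their standard errors from limma, black lines class medians and the dashed line the median of all genes tested; every class median lies below it, from -0.47 for the 19S ATPases to -0.23 for the activators.

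The 20S core and the 19S cap showed about the same median difference. It was -0.35 over the 15 tested core subunits, 13 of them negative, and -0.38 over 17 cap subunits, 13 of them negative. The core median minus the cap median ran from -0.079 without both replicate 1 arrays, whose labels disagree, to 0.11 without both replicate 3 arrays. Neither class was thus lower throughout. The array medians within groups spread by 0.25 for the core and 0.14 for the cap (pooled SD). Core and cap were read on the same arrays, so these SDs do not measure the spread of the difference between them. Within the core, all 7 tested alpha subunits were negative, from -0.87 to -0.22. The 8 tested beta subunits ranged more widely, from -1.31 to 0.32, with 6 negative. This contrast depends on the probe sets. By the mean of all probe sets of a gene, 6 of 7 alpha and 7 of 8 beta subunits were negative. By only the probe sets whose names carry no a, s or x suffix, 5 of 6 alpha and 7 of 7 beta subunits were negative. Within the cap, 5 of 6 ATPases and 8 of 11 non-ATPase subunits were negative. With the mean of all probe sets of a gene, the ATPases had a median of -0.48 with 5 negative, but the non-ATPase subunits had a median of -0.049, with 6 negative and 5 positive, against -0.29 with 1 probe set per gene. Without both replicate 3 arrays 5 of the 7 alpha subunits were negative.

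Among the alpha subunits, Psma7 differed most. Its signal was 1036, 1589 and 637 in iTreg, against 1763, 1593 and 2353 in WT Treg, a difference of -0.87 on the log2 scale (standard error, SE, 0.34, limma adjusted p = 0.604). The groups did not overlap, but iTreg replicate 2 lay at the level of WT replicate 2. Its other probe set differed by -1.05. Psma1 had 529, 502 and 297 in iTreg, against 654, 621 and 664 in WT Treg, a difference of -0.57. The groups did not overlap, and iTreg replicate 3 was the lowest. A second probe set of Psma1 above the expression filter differed by -0.032, the mean of its probe sets by -0.17, and without iTreg replicate 3 the difference was -0.32. The other alpha subunits overlapped between the groups, with differences of -0.41 for Psma2, -0.35 for Psma5, -0.26 for Psma3, -0.22 for Psma4 and -0.22 for Psma6. Psma8, the testis form of an alpha subunit, was at a signal of 0.66 to 2.31 in iTreg and 0.67 to 14.8 in WT Treg, below the unspiked controls, and was not tested.

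The constitutive catalytic beta subunits were unequal. Psmb7, which carries the trypsin-like activity, had 329, 622 and 123 in iTreg, against 655, 771 and 873 in WT Treg. Its difference of -1.31, with a standard error of 0.46, was the most negative of the members (limma adjusted p = 0.538), and the 3 iTreg values themselves spread over a wide range. Psmb6, with the caspase-like activity, had 608, 581 and 480 in iTreg, against 835, 628 and 1230 in WT Treg, a difference of -0.63. The groups did not overlap, though iTreg replicate 1 and WT replicate 2 were close. Psmb5, with the chymotrypsin-like activity targeted by bortezomib, had 326, 290 and 305 in iTreg, against 368, 260 and 444 in WT Treg, a difference of -0.18 with a standard error of 0.32. These groups overlapped, and WT replicate 2 was the lowest of the 6 arrays.

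Psmb10, the inducible counterpart of Psmb7 in immunoproteasomes, had 749, 965 and 605 in iTreg, against 812, 908 and 1237 in WT Treg. The difference was -0.35 with a standard error of 0.29, and the groups overlapped. The structural subunits without catalytic activity were Psmb1 at -0.63, Psmb2 at -0.047, Psmb3 at 0.32 and Psmb4 at 0.15, all with overlapping groups. The other probe set of Psmb3 differed by -0.17 and that of Psmb4 by -0.72, so their direction depends on the probe set. Psmb11, which replaces Psmb5 in thymic cortical epithelium, had signals of 0.36 to 6.06 in iTreg and 0.45 to 4.26 in WT Treg, below the unspiked controls, and was not tested.

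In the ATPase ring of the cap, Psmc5 differed most. Its signal was 113, 404 and 194 in iTreg, against 407, 622 and 571 in WT Treg, a difference of -1.27 (SE 0.42, limma adjusted p = 0.515). The groups parted narrowly, with iTreg replicate 2 almost at the level of WT replicate 1. Psmc3 had 456, 567 and 460 in iTreg, against 729, 700 and 676 in WT Treg, a difference of -0.50 (SE 0.27, limma adjusted p = 0.717). The values of Psmc3 were tight in both groups and did not overlap. Psmc1 differed by -0.56, Psmc4 by -0.45 and Psmc2 by -0.085, each with overlapping groups. Psmc6 went the other way, at 0.43, also with overlap.

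Among the non-ATPase subunits, Psmd3, a lid subunit, was the one member higher in iTreg without overlap. It had 248, 191 and 290 in iTreg, against 130, 136 and 142 in WT Treg, a difference of 0.75 (SE 0.34, limma adjusted p = 0.656). Psmd14, the deubiquitinase that removes chains from substrates, had 1531, 1288 and 930 in iTreg, against 1540, 1616 and 1642 in WT Treg, a difference of -0.38. The groups did not overlap, though iTreg replicate 1 and WT replicate 1 were close. Its partner Psmd7 had 137, 191 and 133 in iTreg, against 297, 147 and 403 in WT Treg, a difference of -0.73 with overlap. The direction of Psmd7 depends on the probe set: its other 2 above the expression filter differed by 0.86 and 0.85, and the mean of its probe sets differed by 0.33.

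Psmd4, a ubiquitin receptor, had 490, 429 and 332 in iTreg, against 514, 452 and 740 in WT Treg, a difference of -0.42 with overlap. The large scaffold subunits split, with Psmd1 at -0.29 and Psmd2 at 0.039. The groups of Psmd1 parted narrowly, with iTreg replicate 1 at 420 and WT replicate 1 at 422. Without iTreg replicate 3 Psmd2 was negative, at -0.32. The lid subunits Psmd8 (-0.49), Psmd12 (-0.45), Psmd6 (-0.23) and Psmd13 (-0.10) were negative, Psmd8 without overlap, and Psmd11 was positive at 0.30. The other probe set of Psmd6 differed by 0.28, and the mean of its probe sets by 0.027. Psmd13 changed sign under 5 alternatives of the processing.

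Activators attach to the core in place of the cap. Psme1, a subunit of the interferon-inducible PA28 ring, had 1771, 2762 and 1364 in iTreg, against 2795, 2514 and 3825 in WT Treg, a difference of -0.67 (SE 0.31, limma adjusted p = 0.659). iTreg replicate 2 lay above WT replicate 2. Psme3, the nuclear PA28 form, had 2553, 1328 and 2584 in iTreg, against 1565, 1496 and 1661 in WT Treg, a difference of 0.39 with overlap. A second probe set of Psme3 differed by -0.74, and the mean of its probe sets by -0.074. Psme4, a large monomeric activator, differed by -0.23. Its 6 probe sets above the expression filter ran from -0.52 to 0.69, and their mean differed by -0.039, so its direction depends on the probe set.

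The assembly chaperones held 2 of the 4 most negative members. Psmd10 and Psmd9, which guide assembly of the ATPase ring and are not part of the finished cap, both had groups that did not overlap. Psmd10 had 167, 200 and 94.4 in iTreg, against 328, 378 and 283 in WT Treg, a difference of -1.07 (SE 0.37, limma adjusted p = 0.525). Psmd9 had 34.9, 59.9 and 41.0 in iTreg, against 96.7, 129 and 111 in WT Treg, a difference of -1.08 (SE 0.38, limma adjusted p = 0.538). A second probe set of Psmd9 above the expression filter differed by 0.41, so its direction depends on the probe set, and the mean of its probe sets differed by -0.25. Psmd10 has a single probe set. Psmd5, a chaperone of the same step, differed by 0.15. The chaperones of core assembly were Psmg1 at -0.23, Psmg2 at 0.58, Psmg3 at -0.031 and Psmg4 at -0.44, all with overlap.

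**Figure D2:**
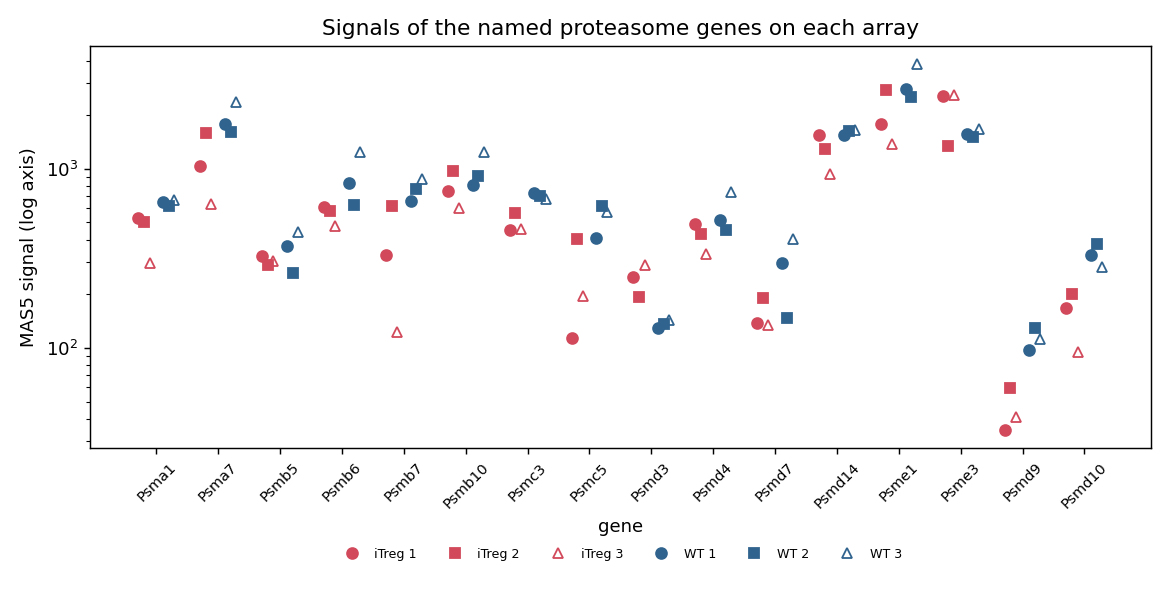
MAS5 signal on a log axis (y axis) of 16 proteasome genes (x axis) on each array, iTreg in red left of WT Treg in blue, with circles, squares and open triangles for replicates 1, 2 and 3. Open triangles mark the lowest iTreg and the highest WT value in many genes, such as Psmb6 (480 and 1230) and Psme1 (1364 and 3825), while the groups do not overlap in Psmc3, Psmd9 and Psmd3.

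Much of the difference lay between the replicate 3 arrays. iTreg replicate 3 was the lowest of the 6 arrays in 23 of the 42 members, or 54.8%, against 27.3% of all genes tested. WT replicate 3 was the highest in 23, again 54.8%, against 20.7% of all genes. Both held at once in 16 members (38.1%), against 8.13% of all genes, and in 8 of 15 core and 5 of 17 cap subunits. The median deviation of the core from each gene's mean stood at -0.0082, -0.069 and -0.51 in iTreg, against 0.11, -0.016 and 0.42 in WT Treg, in replicate order. That of the cap stood at -0.079, -0.085 and -0.34 in iTreg, against 0.15, -0.021 and 0.23 in WT Treg. For core and cap the replicate 3 arrays lay at opposite ends, with replicates 1 and 2 of both groups between them.

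**Figure D3:**
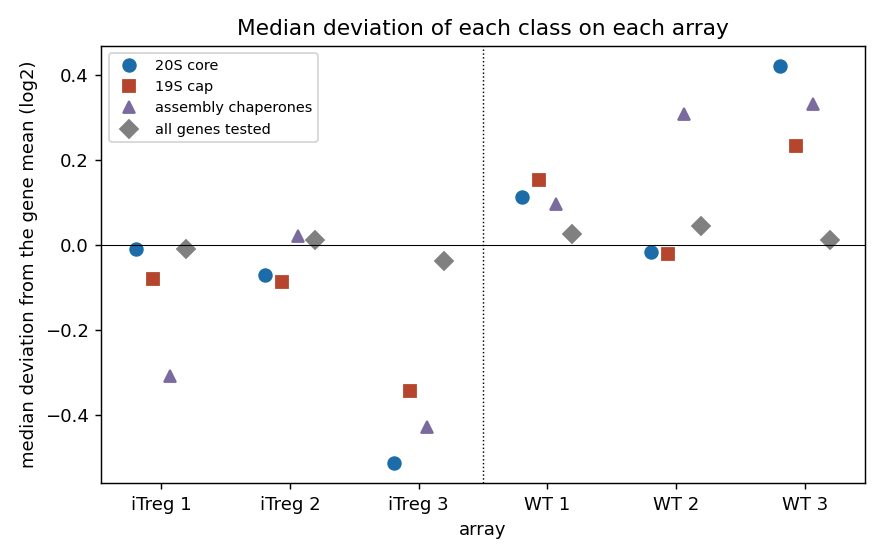
Median deviation from the gene mean, on the log2 scale (y axis), of core subunits, cap subunits, assembly chaperones and all genes tested on each array (x axis). The core runs to -0.51 on iTreg replicate 3 and 0.42 on WT replicate 3, while all genes tested stay within 0.05 of 0 on each array.

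Without both replicate 3 arrays the median difference of the members was -0.12, with 29 of 42 negative, beside -0.032 for all genes. The core median was then -0.028 and the cap median -0.14. Leaving out WT replicate 3 alone gave -0.18 for the core, -0.22 for the cap and -0.22 for all members, and leaving out iTreg replicate 3 alone gave -0.19, -0.27 and -0.22. Without iTreg replicate 2 the core median was -0.49. Psmc5 (-1.16), Psmd9 (-1.04), Psmd10 (-0.89), Psmc3 (-0.48) and Psmd3 (0.65) kept most of their difference without both arrays. That of Psmb7 was -0.63, of Psma7 -0.38, of Psmb6 -0.28 and of Psme1 -0.26, and those of Psmb5 and Psmb10 were -0.012 and -0.014. Psma4, Psma5, Psmb2, Psmc2, Psmd13 and Psme4 were then positive, and Psmb4 and Psmd2 negative, opposite to their signs on all 6 arrays. The log2 ratio of 3′ to 5′ Gapdh signals, a measure of RNA quality, stood at 3.06, 2.48 and 3.38 in iTreg, against 2.28, 2.53 and 2.34 in WT Treg, in replicate order, and was highest on iTreg replicate 3. That of actin was lowest on that array, near 0, with 0.38 and 0.25 on iTreg replicates 1 and 2, against 0.14, 0.27 and 0.32 in WT Treg. The part of RNA quality and of array brightness in these differences was not tested.

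**Figure D4:**
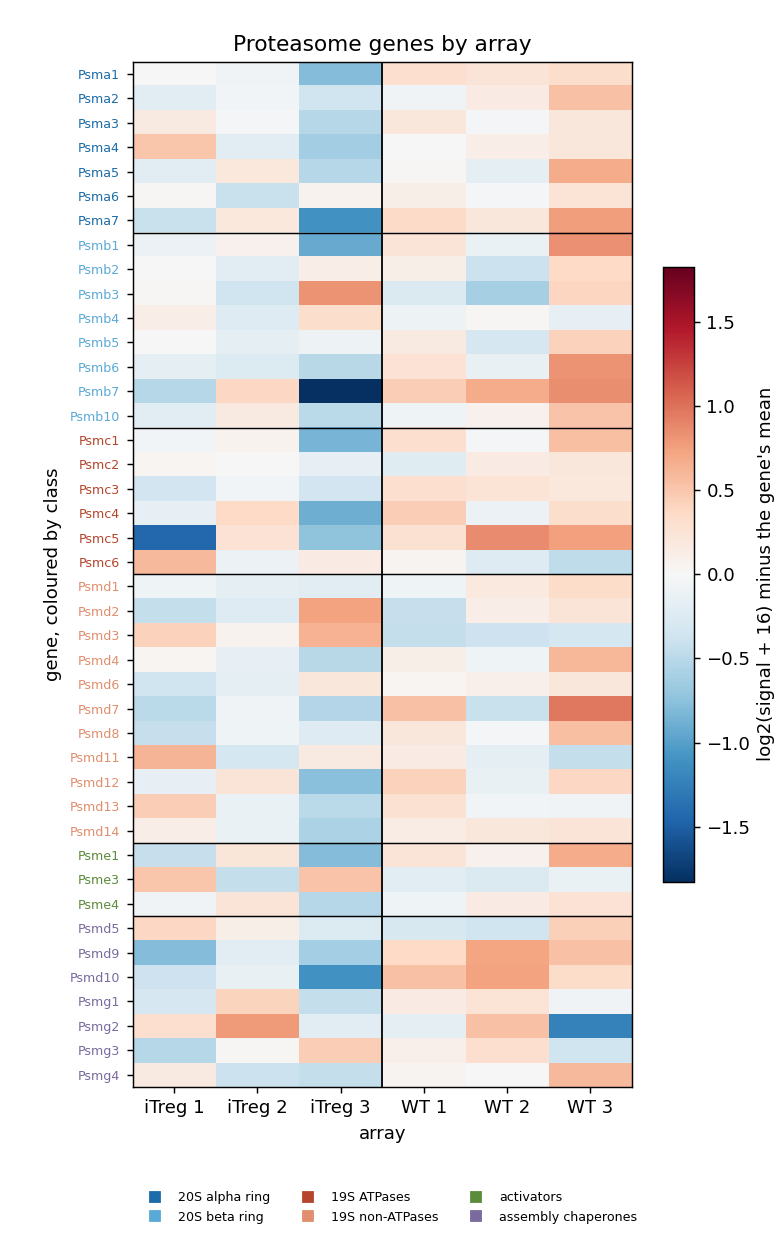
Heat map of 42 proteasome genes (rows, coloured by class) on 6 arrays (columns), as log2(signal + 16) minus the gene's mean. Blue cells gather on iTreg replicate 3, the lowest array for 23 genes, and red cells on WT replicate 3, the highest for 23.

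**Figure D5:**
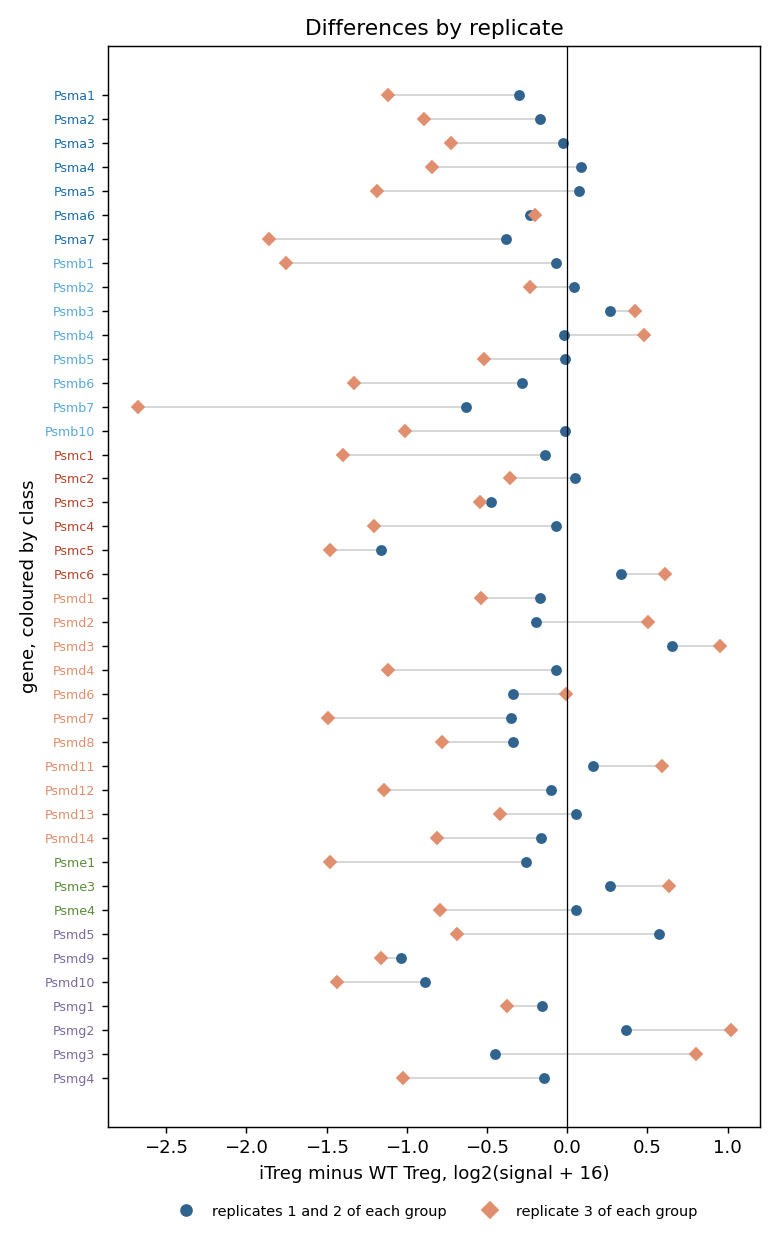
Difference of iTreg minus WT Treg on the log2(signal + 16) scale (x axis) for each of 42 genes (y axis), from replicates 1 and 2 (circles) and between the replicate 3 arrays (diamonds). The 2 symbols lie close for Psmc3 (-0.48 and -0.54) and far apart for Psmb1 (-0.070 and -1.75) and Psmb7 (-0.63 and -2.68).

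Several members are represented by more than 1 probe set. Of 20 members with more than 1 probe set above the expression filter, 10 had probe sets that differed in sign. They were Psma3, Psmb3, Psmb4, Psmd6, Psmd7, Psmd9, Psmd11, Psme3, Psme4 and Psmg2. Of the 36 such probe sets that were not used for the values above, 22 had a negative difference. With the mean of all probe sets of a gene the members' median was -0.24, with 32 of 42 negative. With only probe sets whose names carry no a, s or x suffix, it was -0.35, with 28 of 35 negative. The core median was then -0.41 and the cap median -0.49. The 3 probe sets of Psmc6 were all positive, from 0.13 to 0.43, and the 3 of Psmb1 all negative, from -0.63 to -0.25.

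The promoters of core and cap genes were compared for short motifs chosen with earlier results of these data known. RefSeq promoters of the GRCm38.p6 build were given for 36 of the 44 members, all but Psma8, Psmb1, Psmb2, Psmb7, Psmc3, Psmd3, Psmd7 and Psmg2. In the 250 bases before the annotated start, on both strands, 3 motifs were searched: TGACNNNGC, the core of the antioxidant response element that Nrf factors bind, CCAAT, bound by NF-Y, and CCGGAAG, bound by ETS factors. No matches of different motifs overlapped. Each member was counted by its first entry, while the share of all promoters counts every entry, so these shares rest on unlike sets. CCGGAAG was found in 11 of 36 members, or 30.6%, against 6.91% of all 32851 promoters in the table. It occurred in 8 of 14 cap promoters and in 0 of 13 core promoters. CCAAT was found in 13 of the 36 (36.1%, against 33.8% of all promoters), 5 of them among 7 alpha subunits, and TGACNNNGC in 5 (13.9%, against 10.2%). These matches are a description of the sequence, and binding was not measured. Whether the shares are particular to proteasome genes was not tested.

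The windows below show the 8 cap matches on the strand of the gene, with up to 15 bases on each side and nothing past the start, as CCGGAAG is the motif whose share differed most from that of all promoters. Capitals mark CCGGAAG or its reverse complement.
Psmc1 (chr12:100110159-100110195, plus strand): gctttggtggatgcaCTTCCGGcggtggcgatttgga
Psmc2 (chr5:21785176-21785212, plus strand): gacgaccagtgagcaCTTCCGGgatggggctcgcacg
Psmc6 (chr14:45329709-45329745, plus strand): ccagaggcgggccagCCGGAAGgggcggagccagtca
Psmd11 (chr11:80428589-80428614, plus strand): aacgcgagggcgggtCTTCCGGgtgt
Psmd12 (chr11:107479496-107479527, plus strand): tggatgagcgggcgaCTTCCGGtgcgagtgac
Psmd2 (chr16:20651611-20651647, plus strand): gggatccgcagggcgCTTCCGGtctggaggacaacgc
Psmd4 (chr3:95042718-95042754, minus strand): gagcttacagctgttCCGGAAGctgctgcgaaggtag
Psmd6 (chr14:14120969-14121005, minus strand): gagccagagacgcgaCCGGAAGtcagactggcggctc
The match begins 11 to 125 bases before the start. Between iTreg and WT Treg, Psmc1, Psmd12, Psmd4, Psmd6 and Psmc2 differed by -0.56, -0.45, -0.42, -0.23 and -0.085, and Psmc6, Psmd11 and Psmd2 by 0.43, 0.30 and 0.039, so cap genes with this match had differences of both signs.

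The antioxidant response core lies close to the start in the catalytic subunits Psmb5 and Psmb6 and in the chaperone Psmd9, shown because they include 2 catalytic subunits and one of the most negative members. The other matches were in Psmc6 and Psmd12. Capitals mark TGACNNNGC.
Psmb5 (chr14:54618019-54618057, minus strand): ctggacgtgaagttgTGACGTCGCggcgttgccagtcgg
Psmb6 (chr11:70525333-70525356, plus strand): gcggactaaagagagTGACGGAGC
Psmd9 (chr5:123228144-123228182, plus strand): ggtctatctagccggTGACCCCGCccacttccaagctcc
Their differences were -0.18, -0.63 and -1.08, and those of Psmc6 and Psmd12, which also have the match, were 0.43 and -0.45. For Psmd9 a second probe set differed by 0.41 and the mean of its probe sets by -0.25. Genes with this match thus had differences of both signs.

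Genes that act with the proteasome but fall outside the symbol rule gave a mixed picture. Of 18 listed partners 15 were tested, 10 with a negative and 5 with a positive difference and a median of -0.12. Limma called 0 of them. At an unadjusted limma p under 0.05, 1 partner, Pomp, was lower (6.67%) and 0 were higher, against 4.58% and 3% of all genes. Pomp, the maturation factor that assembles new core particles and is degraded as their first substrate, had 962, 1498 and 919 in iTreg, against 1983, 1667 and 3149 in WT Treg. Its difference was -0.98 (SE 0.31, limma adjusted p = 0.500), without overlap, and -0.59 without both replicate 3 arrays. Sem1, a small subunit of the lid, had 2624, 2196 and 2363 in iTreg, against 3067, 2190 and 4196 in WT Treg, a difference of -0.35 with overlap. Without WT replicate 3 it was -0.12. Without both replicate 3 arrays the partners' median was 0.038, with 6 negative and 9 positive, and with the mean of probe sets it was -0.015.

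Ubiquitin supply and substrate unfolding were measured by 7 of 12 listed genes, 5 negative and 2 positive, and limma called 0 of them. Nsfl1c was lower and Usp7 higher at the same unadjusted level, 1 gene of 7 each way, against 4.58% and 3% of all genes. Usp7, a deubiquitinase that acts on Foxp3 and p53 among others, had 2410, 1686 and 3232 in iTreg, against 1411, 1237 and 1148 in WT Treg, a difference of 0.90 (SE 0.29, limma adjusted p = 0.500). Every iTreg array lay above every WT array, but the mean of its probe sets differed by only 0.26. Nsfl1c, a cofactor of the unfolding ATPase Vcp, had 262, 351 and 223 in iTreg, against 493, 432 and 549 in WT Treg, a difference of -0.80 (SE 0.31, limma adjusted p = 0.601), also without overlap.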

How the data were processed

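Total RNA of sorted Foxp3-positive CD4 T cells was hybridised to 6 one-colour Affymetrix mouse arrays, 3 for each of 2 groups taken from the sample titles. The deposited values are MAS5 intensity signals, per the submitters' processing notes, with 1 value per probe set. No version of that software is given in the sources used here. The trimmed mean signal was 150.0 on all arrays, which shows a scaling by the authors before deposit. Of 45101 probe sets, 64 were controls, 34945 had 1 gene symbol in the platform annotation, 932 had several and 9160 had none. The last 2 kinds were not used here. RefSeq names (GRCm38.p6) were matched through gene identifiers, and no symbol changed.

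Signals were transformed as log2(signal + 16), so differences understate the change of dim genes. For each of 18193 genes the probe set with the highest mean over the 6 arrays was used. Genes were tested if their mean over all arrays reached 4.99 (log2), the level that left out the lowest 40% (10916 kept). Limma 3.58.1 in R 4.3.3 (lmFit, eBayes with an intensity trend) gave iTreg minus WT differences with two-sided p-values adjusted by Benjamini-Hochberg over all genes tested, with a threshold of 0.05. The fit was tested on simulated data.

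The members, the classes and the other lists were chosen with earlier results of these data known. All members are accounted for. Signals per array are given for the 2 members with the smallest p in each class and for Psmb5, Psmb6, Psmb7, Psmb10, Psme1, Psmd4 and Psmd14. Psme2 belonged to that set and was not analysed here. Of each other list the 2 genes with the smallest p are named. The replicate numbers were not used to pair the samples in the main fit. Across genes, deviations from the group means correlated at 0.169, 0.0456 and 0.130 for same-numbered arrays. For the other pairs of arrays they correlated at -0.172 to 0.0530, so whether the numbers pair the samples was not settled. The number of arrays limits the precision. Alternatives covered the pseudocount, scaling, filter, probe set choice, limma options, Welch's test, the replicate block and arrays left out.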

Additional observations from a re-analysis of the deposited data

How the results depend on the processing

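No member was called under any of 21 alternatives, and the lowest adjusted p of a member was 0.210 (without iTreg replicate 2). The count of all genes called was 3. It was 0 with a pseudocount of 1, without a filter, with Welch's test, without both arrays with label doubts and without both replicate 3 arrays, 8 with median scaling and 14 with array weights, and it ranged from 0 to 1 without single arrays. With the replicate block the same 3 genes were called and the members' lowest limma adjusted p was 0.312. At an unadjusted limma p under 0.05 there were 6 lower and 0 higher members with the block, against 5 and 1 without it. Of all 10916 genes, 1014 passed that level in either direction with the block and 828 without it. iTreg replicate 2 correlated with WT replicate 1 at 0.0530 and with WT replicate 2 at 0.0456, so the numbers do not settle a pairing. The core median ranged from -0.49 to -0.18 and the cap median from -0.42 to -0.22 without single arrays. Without both replicate 3 arrays they were -0.028 and -0.14. With median scaling, which moved the median of all genes from -0.030 to 0.048, 30 of 42 members were negative, with a core median of -0.26 and a cap median of -0.29, and array weights gave -0.20 and -0.25. The mean of probe sets turned Psmd7 to 0.33 and Psme3 to -0.074. The other 14 of the 16 members with signals per array kept their sign under each alternative that gave a value. Of the 26 remaining tested members 14 changed sign under at least 1 alternative: 8 members did so without both replicate 3 arrays, 7, Psmd7 and Psme3 included, with the mean of probe sets, and 3 (Psmb2, Psmc2 and Psmg3) with median scaling. The cause of these shifts was not tested. Dim members are limited by background: Psmd9 read 34.9 to 59.9 in iTreg, where the unspiked controls reached 28.5.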

Other observations

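The signals of listed regulators of proteasome genes leaned the opposite way from those of the subunits. The list, which includes Keap1 (0.21), was not divided into activators and repressors, so higher signals do not stand for more activation. Mafg read 19.8 on iTreg replicate 1 and 19.8 on WT replicate 3, below the control level of 28.5. Of 14 listed regulators 13 were tested, 12 with a positive and 1 with a negative difference, and the median was 0.30. The share of negative differences was 7.69%, against 52.8% of all genes tested. Limma called 0 of them, also 0 at an unadjusted p under 0.05. Nfe2l2, which encodes Nrf2, had 326, 340 and 401 in iTreg, against 269, 216 and 271 in WT Treg, a difference of 0.47 without overlap (SE 0.31, limma adjusted p = 0.759). Foxo3, a forkhead factor, had 1923, 994 and 2137 in iTreg, against 837, 1097 and 1473 in WT Treg, a difference of 0.53 with overlap, and 0.32 without iTreg replicate 3 and 0.33 without WT replicate 1. Without both replicate 3 arrays the regulators' median was 0.14, with 9 of 13 positive, and with the mean of probe sets 0.29, with 10 positive.

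Antigen processing genes, which use proteasome products, showed no common direction. Of 9 tested, 5 were negative and 4 positive, with a median of -0.060, and limma called 0. By unadjusted limma p (under 0.05) 0 were lower and 1, Nlrc5, was higher, against 4.58% and 3% of all genes. Nlrc5, the activator of MHC class I genes, had 2860, 2296 and 2571 in iTreg, against 1638, 1988 and 853 in WT Treg, a difference of 0.86 (SE 0.32, limma adjusted p = 0.598), without overlap, and 0.50 without WT replicate 3. Erap1, which trims peptides in the endoplasmic reticulum, had 185, 270 and 134 in iTreg, against 266, 234 and 356 in WT Treg, a difference of -0.54 with overlap. For Erap1 it was -0.31 without iTreg replicate 3, -0.15 without both replicate 3 arrays and -0.21 with the mean of probe sets.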
